A study of Homo sapiens with 36 samples.

Results

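MyLa, a line established from the skin lymphoma mycosis fungoides, was compared with H9 and with Mac1, the 2 other cutaneous T cell lymphoma (CTCL) lines of the series, in control libraries alone. H9 was cloned from HUT 78, a line from Sézary syndrome, and Mac1 came from another CTCL. A gene was taken as separating MyLa when it was called in both comparisons in the same direction. Of 20324 genes tested (60628 in the deposited table), 7244 met this rule, 4007 of them higher and 3237 lower in MyLa.

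The control libraries numbered 3 for MyLa (labelled MylaCD4+), 2 for H9 and 2 for Mac1, among 36 libraries of 7 T cell neoplasm lines in which GATA3 was knocked down. The labels give the control genotype as WT, and the library names mark these cells as scramble, beside shGATA3 for the knockdown cells. The culture medium was RPMI with serum for every line, and polyadenylated RNA was sequenced. Every group is a cell line, so each comparison is between lines and not between diseases, and H9 is itself a clone. Whether replicates were grown as separate cultures is not labelled; a p-value here therefore reflects library-to-library spread within a line, which may be technical. In bulk RNA, fewer cells carrying a transcript and less of it per cell cannot be told apart.

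CTCL arises from mature T cells that home to skin. Such cells read antigen through the T cell receptor and its CD3 chains, which signal through the kinases LCK and ZAP70. Helper subsets differ in their master regulators and cytokines: GATA3 with interleukins 4, 5 and 13 in type 2 cells, TBX21 with interferon gamma in type 1 cells. Activated human T cells can also express MHC class II, under the transactivator CIITA, and every nucleated cell can answer interferon through transcription factors, among them IRF proteins, that bind GAAA repeats in target promoters.

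The 7 libraries held about 25896600 to 34033700 expected counts. Replicates of these lines correlated at 0.994 on log2 values and none was a duplicate. Levels are given as CPM, the counts of a gene scaled to a common library total, and calls are from edgeR's quasi-likelihood test with Benjamini-Hochberg adjustment at 0.05. Genes of the mitochondrial genome, ribosomal RNA included, took 3.14 to 3.33% of counts in MyLa, 0.808 to 0.827% in H9 and 1.06 to 1.23% in Mac1; the part of that share in the results below was not tested. The test pooled its spread over the control libraries of all 7 lines, of which CCRF-CEM control 2 stood apart from its replicates. Without that library the counts were 4152 higher and 3361 lower.

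The lines differed at most genes. Against H9, 70.8% of tested genes were called, 34.5% higher and 36.3% lower in MyLa. Against Mac1 the share was 66.5%, with 34.6% higher and 31.9% lower. Both comparisons use the same MyLa libraries, so they are not independent. Genes called the same way in both made up 19.7% (higher) and 15.9% (lower) of those tested, which is the background against which every gene list below is read. The lists hold mostly protein-coding genes. Among protein-coding genes with at least 5 CPM in 1 of the 3 lines the shares were 20.75% higher and 23.1% lower, so the 15.9% is a low reference for them. A further 3176 genes were called in opposite directions, 7049 in 1 comparison only and 2855 in neither. At least a 2-fold difference in both comparisons was met by 2039 higher (10%) and 1395 lower genes (6.86%), and at least 16-fold by 553 higher (2.72%) and 545 lower genes (2.68%). Every MyLa library lay above every H9 and Mac1 library for 3979 of the 4007 higher genes and below for 3205 of the 3237 lower genes. The calls came from these same libraries, so this separation is largely built into the rule and adds no further support. The share among all tested genes is not given here.

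A small share of these differences lay between at least 10 CPM and near 0. Of the higher genes, 237 had no count in any H9 or Mac1 library, and 154 had at least 10 CPM in MyLa with less than 1 CPM in both other lines. Of the lower genes, 339 had no count in any MyLa library, and 131 had less than 1 CPM in MyLa with at least 10 CPM in both other lines. Folds against a line with no count are lower bounds, taken against 3 counts over its libraries (0.0380 CPM in MyLa, 0.0556 CPM in H9, 0.0520 CPM in Mac1).

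Among genes high in MyLa and near 0 in both other lines, the first by fold was PNMA5, a member of the paraneoplastic Ma antigen family. It stood at 854, 784 and 872 CPM in the MyLa libraries, 0 CPM in both H9 libraries and 0 and 0.0704 CPM in the Mac1 libraries. This was at least 15064-fold higher than in H9, and the Mac1 signal rested on a few reads in 1 library. MAOA, the monoamine oxidase that breaks down serotonin and noradrenaline, had 248, 243 and 234 CPM in the MyLa libraries, against 0 CPM in both H9 libraries and 0.0341 and 0.0352 CPM in the Mac1 libraries. Its neighbour MAOB, the sister enzyme, ran the same way at 35.8 CPM in MyLa, 0 CPM in H9 and 0.0347 CPM in Mac1. All MyLa libraries lay above the others for both genes, which the choice of named genes required of MAOA.

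Surface receptors of lymphocytes were also in this group. TIGIT, an inhibitory receptor that competes with CD226 for its ligands, had 301, 272 and 272 CPM in the MyLa libraries, against 0.149 and 0.367 CPM in the H9 libraries and 0 and 0.0352 CPM in the Mac1 libraries. KIR3DL1, an inhibitory receptor of natural killer cells for HLA-B, had 58.3, 54.8 and 54.8 CPM in the MyLa libraries, 0 CPM in both H9 libraries and 0 CPM in both Mac1 libraries, a difference of at least 1008-fold over H9 and 1076-fold over Mac1. KIR genes are close copies of each other, so the split of reads among them is uncertain; KIR3DL2, a marker used for Sézary cells, was counted at 0.698 CPM in MyLa, 0.110 CPM in H9 and 0 CPM in Mac1. GPR171, a G protein-coupled receptor of lymphocytes, averaged 109 CPM in MyLa, 0.0374 CPM in H9 and 0.0171 CPM in Mac1, and it lies within MED12L on the opposite strand.

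Genes of matrix, vesicles and secretion were among them too. COL3A1, a fibrillar collagen chain, had 207, 179 and 218 CPM in the MyLa libraries, against 0 CPM in both H9 libraries and 0 and 0.0704 CPM in the Mac1 libraries. SYT4, a synaptotagmin of secretory vesicles, had 208, 199.9 and 187 CPM in the MyLa libraries, against 0 CPM in both H9 libraries and 0.0341 and 0 CPM in the Mac1 libraries. GALNT5, which starts mucin-type O-glycans, and WFDC1, a secreted protease inhibitor-like protein, had no count in H9 or Mac1 and averaged 198 and 197 CPM in MyLa. The 15 genes were completed by UBD (a ubiquitin-like modifier induced by cytokines, 161 CPM in MyLa), GPAT2 (149.8 CPM), CA10 (78 CPM), PTH2R, a parathyroid hormone receptor (63.4 CPM), ATP1B2, a sodium pump subunit (58.3 CPM), and the transcript AC108105.1 (414 CPM), all with means under 0.2 CPM in H9 and Mac1. In the series' 4 lines of T cell acute lymphoblastic leukaemia (T-ALL) no mean of any of the 15 exceeded 2.42 CPM, and 13 of them stayed under 1 CPM in every such line.

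**Figure D1:**
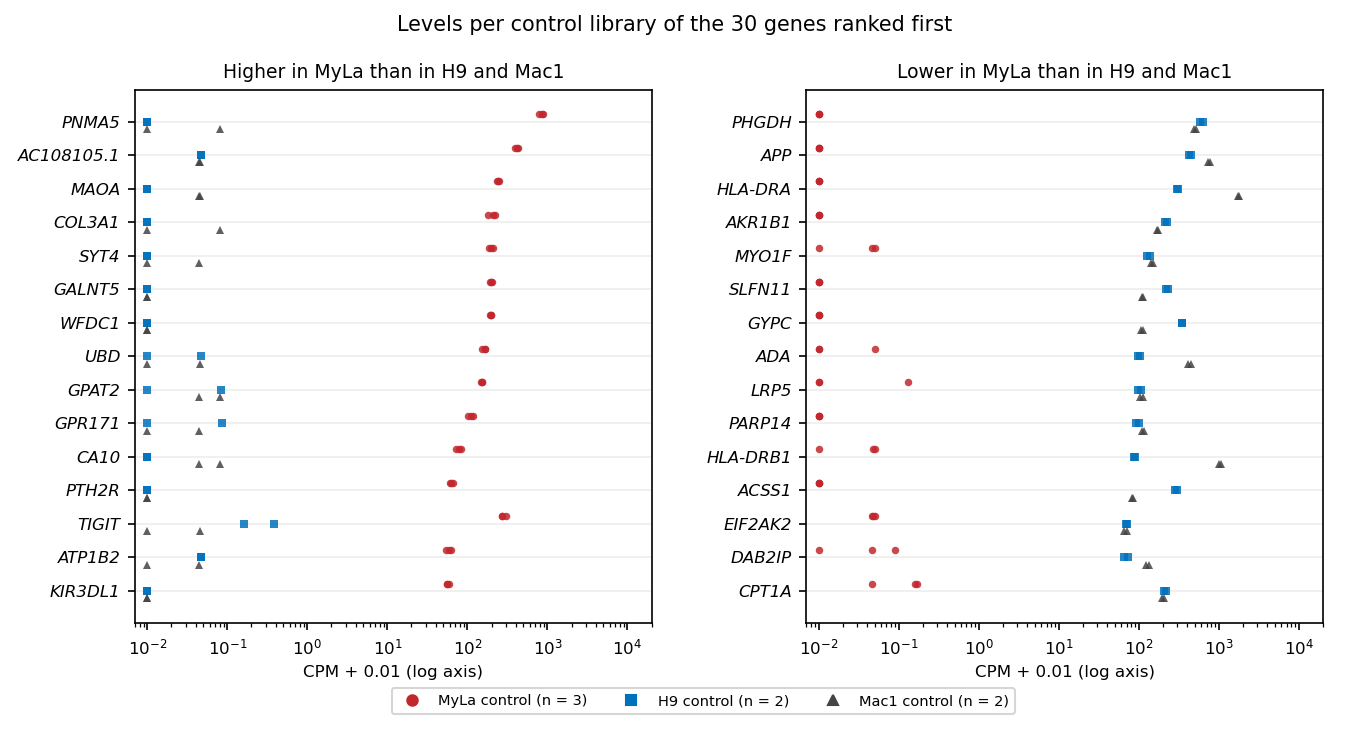
Levels (CPM + 0.01, log axis) of the 15 higher and 15 lower genes ranked first by the smaller of their differences from H9 and Mac1, with 1 point per control library (3 MyLa, 2 H9, 2 Mac1). MyLa points lie at one end of each row and the H9 and Mac1 points together at the other. Separation of MyLa was required of these genes. A point at 0.01 is a library with no count.

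Genes near 0 in MyLa alone included enzymes of core metabolism. PHGDH, the first enzyme of serine synthesis from glucose, had 0 CPM in all 3 MyLa libraries, 587 and 629 CPM in the H9 libraries and 485 and 519 CPM in the Mac1 libraries. That is at least 15989-fold lower in MyLa than in H9 and 13205-fold lower than in Mac1. In the T-ALL lines PHGDH averaged 483 to 910.0 CPM, so MyLa was the only line of the 7 with no PHGDH count. AKR1B1, the aldose reductase of the polyol pathway, was likewise uncounted in MyLa and averaged 218 CPM in H9 and 169 CPM in Mac1. ACSS1, a mitochondrial acetyl-CoA synthetase, had 0 CPM in all 3 MyLa libraries, 302 and 285 CPM in the H9 libraries and 81.1 and 85.5 CPM in the Mac1 libraries.

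Further metabolic genes followed the same pattern. ADA, the adenosine deaminase whose loss causes severe combined immunodeficiency, had 0, 0 and 0.0401 CPM in the MyLa libraries, 98.6 and 103 CPM in the H9 libraries and 416 and 446 CPM in the Mac1 libraries; it overlaps PKIG on the opposite strand. CPT1A, which admits long-chain fatty acids to mitochondria, averaged 0.116 CPM in MyLa, 211 CPM in H9 and 202 CPM in Mac1. GLUL, glutamine synthetase, had 0 CPM in all 3 MyLa libraries, 31.1 and 34.2 CPM in the H9 libraries and 216 and 279 CPM in the Mac1 libraries. In each of these genes the highest MyLa library stayed at or below 0.160 CPM.

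Other genes of the first 15 belong to defence or to signalling. SLFN11, a helicase-like factor whose loss marks resistance to DNA-damaging drugs, had 0 CPM in all 3 MyLa libraries, 234 and 219 CPM in the H9 libraries and 112 and 109 CPM in the Mac1 libraries. EIF2AK2, the double-stranded RNA sensor PKR, had 0.0367, 0.0374 and 0.0401 CPM in the MyLa libraries, 71.1 and 69.4 CPM in the H9 libraries and 65.8 and 70.2 CPM in the Mac1 libraries. APP, the amyloid precursor, was uncounted in MyLa and averaged 432 CPM in H9 and 743 CPM in Mac1. MYO1F (an unconventional myosin of leukocytes), GYPC (glycophorin C), LRP5 (a Wnt co-receptor) and DAB2IP (a Ras GTPase-activating protein) averaged 0.0256, 0, 0.0401 and 0.0390 CPM in MyLa, with at least 68.9 CPM in each of the other lines. Of the 15, 7 had at least 1 CPM in every T-ALL line and 2, HLA-DRA and HLA-DRB1, were under 1 CPM in all of them.

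T cell markers of MyLa were read in part. Levels of CD2, CD5, CD7, TRAC and TRBC1 are not given here, so the markers below do not settle its T cell identity. CD3D and CD3G, chains of the receptor complex, averaged 126 and 73.1 CPM in MyLa, 147 and 102 CPM in H9 and 0 and 0 CPM in Mac1. CD4 went against the label: it had 0.0734, 0.0374 and 0 CPM in the MyLa libraries, against 12.9 and 10.2 CPM in the H9 libraries and 183 and 192 CPM in the Mac1 libraries. CD8A was called higher but low, at 5.28 CPM in MyLa, 0.685 CPM in H9 and 1.26 CPM in Mac1. CD3E averaged 0.164 CPM in MyLa, 219 CPM in H9 and 0 CPM in Mac1, and the proximal kinase gene LCK 0.0134 CPM in MyLa, 268 CPM in H9 and 0 CPM in Mac1; both were near 0 in MyLa and Mac1 and high in H9, so neither was lower than in Mac1. CD28, the main costimulatory receptor, averaged 0 CPM in MyLa, 4.22 CPM in H9 and 0 CPM in Mac1.

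Of 11 tested genes of the T cell receptor complex, 1 was higher (TRBC2, 205 CPM in MyLa, 161 CPM in H9 and 20.8 CPM in Mac1, a near copy of TRBC1 whose reads may be split) and 2 were lower in both comparisons. Of 31 tested genes of receptor signalling, 5 were higher and 9 lower (29%). The lower share was 15.9% among all genes and 23.1% among protein-coding genes with at least 5 CPM in 1 of the 3 lines. PTPN6, the phosphatase SHP-1 that restrains receptor signals, had 192, 181 and 196 CPM in the MyLa libraries, against 5.98 and 6.24 CPM in the H9 libraries and 35.9 and 37.6 CPM in the Mac1 libraries. PTPRC, the CD45 phosphatase that activates Src family kinases, had 46.2, 46.3 and 39.3 CPM in the MyLa libraries, against 387 and 402 CPM in the H9 libraries and 187 and 190.0 CPM in the Mac1 libraries. NFATC1, a calcium-regulated transcription factor, was near 0 at 0.0514 CPM in MyLa, 26.3 CPM in H9 and 8.88 CPM in Mac1. RASGRP1, which links diacylglycerol to Ras, averaged 4.70 CPM in MyLa, 40.1 CPM in H9 and 74.8 CPM in Mac1. ZAP70 stood higher in MyLa by less than 2-fold, at 304 CPM in MyLa, 257 CPM in H9 and 156 CPM in Mac1.

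GATA3, the target of the study, was higher in MyLa than in both other lines. It had 260.4, 251 and 247 CPM in the MyLa libraries, against 153 and 146 CPM in the H9 libraries and 82.8 and 100.2 CPM in the Mac1 libraries. The log2 difference was 0.76 ± 0.076 (SE) from H9 and 1.47 ± 0.078 from Mac1, with adjusted p of 1.35e-08 and 7.07e-13 in edgeR's quasi-likelihood test. GATA3-AS1 overlaps it on the opposite strand. Among 33 lineage transcription factors tested, 5 were higher and 10 lower. RUNX3 and GATA3 were among the higher ones. Lower ones were TOX2 (0.0761 CPM in MyLa, 24 CPM in H9 and 36 CPM in Mac1), an HMG-box factor of activated T cells, FLI1 (0.179 CPM in MyLa, 29.3 CPM in H9 and 109 CPM in Mac1), an ETS factor, TCF12 (16.9 CPM in MyLa, 199 CPM in H9 and 65.5 CPM in Mac1), an E protein, and ZBTB7B (23.3 CPM in MyLa, 88.3 CPM in H9 and 83.2 CPM in Mac1), the factor that fixes the CD4 helper fate. TOX, used as a CTCL marker, was lower at 57.9 CPM in MyLa, 118 CPM in H9 and 135 CPM in Mac1.

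Type 2 cytokine genes divided. IL13 had 33.1, 29.4 and 29.4 CPM in the MyLa libraries, 0 CPM in both H9 libraries and 0 CPM in both Mac1 libraries, at least 551-fold higher than in H9 and 589-fold higher than in Mac1. IL9 had 20.6, 19 and 20.2 CPM in the MyLa libraries, 0 CPM in both H9 libraries and 0.0683 and 0.211 CPM in the Mac1 libraries. STAT6, which carries the interleukin 4 signal, averaged 334 CPM in MyLa, 131 CPM in H9 and 277 CPM in Mac1. IL4 and IL5 were near 0 in MyLa (0.0256 and 0.1999 CPM), and IL10 was lower at 0 CPM in MyLa, 39.4 CPM in H9 and 4.59 CPM in Mac1. Of 15 tested type 2 genes 4 were higher and 3 lower, near the background shares.

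Type 1 and cytotoxic genes were more often lower than higher. Of 23 tested, 10 were lower (43.5%) and 1 higher, the granzyme GZMM at 32.6 CPM in MyLa, 24.3 CPM in H9 and 0.122 CPM in Mac1. The lower share was 15.9% among all genes and 23.1% among protein-coding genes with at least 5 CPM in 1 of the 3 lines. PRF1, the pore-forming perforin, had 27.1, 26.9 and 24.8 CPM in the MyLa libraries, against 286 and 265 CPM in the H9 libraries and 503 and 531 CPM in the Mac1 libraries. NKG7, a cytotoxic granule protein, had 0.661, 0.598 and 0.882 CPM in the MyLa libraries, against 48.4 and 53.8 CPM in the H9 libraries and 194 and 203 CPM in the Mac1 libraries. Expression was at or near 0 in MyLa for TBX21 (0 CPM in MyLa, 0.334 CPM in H9 and 19.7 CPM in Mac1), for IFNG (0 CPM in MyLa, 0.426 CPM in H9 and 8.61 CPM in Mac1) and for CST7 (0 CPM in MyLa, 17.9 CPM in H9 and 6.47 CPM in Mac1), the inhibitor of granule cathepsins. Of the 12 tested genes of the Th17 list 1 was called in both comparisons in the same direction, RORA, lower at 0.482 CPM in MyLa, 10.8 CPM in H9 and 79.4 CPM in Mac1.

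Genes of the TNF superfamily moved in both directions. TNFRSF4 (OX40), a survival receptor of activated T cells, had 444, 413 and 429 CPM in the MyLa libraries, against 0.411 and 0.514 CPM in the H9 libraries and 0.0341 and 0.0704 CPM in the Mac1 libraries. Its neighbour TNFRSF18 (GITR) averaged 34.8 CPM in MyLa, 0.111 CPM in H9 and 0.0341 CPM in Mac1. TNFSF4, the OX40 ligand, averaged 69.4 CPM in MyLa, 5.64 CPM in H9 and 0.0176 CPM in Mac1, so receptor and ligand were both called higher. Of 28 tested TNF superfamily genes 9 were higher (32.1%) and 6 lower (21.4%). The lower ones included TNFRSF8, which encodes CD30, at 131 CPM in MyLa, 168 CPM in H9 and 1316 CPM in Mac1, and TNFRSF1A at 18.3 CPM in MyLa, 123 CPM in H9 and 36 CPM in Mac1.

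TNFRSF4, TNFRSF18, TIGIT and ENTPD1, an ectonucleotidase (CD39), are also on the list of regulatory T cell genes, of which 5 of 12 tested were higher and 1 lower. FOXP3, which defines that subset, was at 0.640 CPM in MyLa, 0.352 CPM in H9 and 0.366 CPM in Mac1 and passed neither comparison. ICOS, a costimulatory receptor of the CD28 family, had 141, 139 and 126 CPM in the MyLa libraries, against 9.94 and 11.1 CPM in the H9 libraries and 1.64 and 0.951 CPM in the Mac1 libraries. CD80, a ligand of CD28 and CTLA4, averaged 40.5 CPM in MyLa, 0.909 CPM in H9 and 26.9 CPM in Mac1. Of 15 checkpoint genes tested 4 were higher and 3 lower.

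Secreted factors and their receptors moved in both directions. LIF, a cytokine of the interleukin 6 family, averaged 157 CPM in MyLa, 5.72 CPM in H9 and 8.83 CPM in Mac1. OSM, of the same family, averaged 112 CPM in MyLa, 20.2 CPM in H9 and 23.8 CPM in Mac1. IL15, a growth factor of memory T cells, averaged 26.4 CPM in MyLa, 0.204 CPM in H9 and 0.243 CPM in Mac1. Of 18 tested cytokine ligands 7 were higher and 5 lower, the lower ones including VEGFA (23.1 CPM in MyLa, 308 CPM in H9 and 64.1 CPM in Mac1) and IL32 (201 CPM in MyLa, 425 CPM in H9 and 749 CPM in Mac1). CCL22, a ligand of CCR4, averaged 13.1 CPM in MyLa, 0.0187 CPM in H9 and 0.0171 CPM in Mac1, and CCL17, its neighbour and the other CCR4 ligand, 1.40 CPM in MyLa, 0 CPM in H9 and 0 CPM in Mac1. CCR4 itself was higher than in H9 and lower than in Mac1, at 188 CPM in MyLa, 74.8 CPM in H9 and 365 CPM in Mac1.

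For skin homing, CCR10, receptor of the keratinocyte chemokine CCL27, averaged 17.3 CPM in MyLa, 1.20 CPM in H9 and 0.521 CPM in Mac1, and FUT7, which builds the sialyl Lewis X ligand of E-selectin, 79.4 CPM in MyLa, 0.0370 CPM in H9 and 26.9 CPM in Mac1. Of 23 tested genes of chemokine receptors and homing 5 were higher and 6 lower. Of 39 cytokine receptor and JAK-STAT genes 11 were higher and 13 lower. IL7R, the interleukin 7 receptor chain, averaged 29.4 CPM in MyLa, 0.499 CPM in H9 and 0.535 CPM in Mac1, and TYK2, a Janus kinase, had 899, 847 and 936 CPM in the MyLa libraries, against 211 and 189 CPM in the H9 libraries and 216 and 218 CPM in the Mac1 libraries.

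MHC class II was divided within the gene cluster on chromosome 6. These genes encode the alpha and beta chains that present peptide (HLA-DR, -DQ, -DP), the peptide editors HLA-DM and HLA-DO, the invariant chain CD74 and CIITA. HLA-DRA had 0 CPM in all 3 MyLa libraries, 308 and 299 CPM in the H9 libraries and 1718 and 1785 CPM in the Mac1 libraries. HLA-DRB5, HLA-DRB1, HLA-DQA1 and HLA-DQB1 were also at or near 0 in MyLa: across all 3 MyLa libraries the highest of them was HLA-DRB1 at 0.0401 CPM. In H9 these 4 averaged 33.9, 87.3, 10.9 and 9.28 CPM, and in Mac1 581, 1029, 371 and 486 CPM. They are neighbours from 32439842 to 32668383 on chromosome 6 (GRCh38).

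The rest of the class II list was higher in MyLa than in H9. CIITA had 492, 473 and 499.7 CPM in the MyLa libraries, against 155 and 132 CPM in the H9 libraries and 339 and 316 CPM in the Mac1 libraries, a log2 difference of 1.77 ± 0.091 (SE) from H9 and 0.58 ± 0.086 from Mac1. CD74 averaged 8126 ± 153 CPM in MyLa (SD, n = 3), 1409 ± 35.1 CPM in H9 and 4577 ± 303 CPM in Mac1 (n = 2 each). HLA-DPB1 averaged 829.6 CPM in MyLa, 84.3 CPM in H9 and 594 CPM in Mac1. HLA-DMA averaged 257 CPM in MyLa, 16.5 CPM in H9 and 176 CPM in Mac1, and HLA-DOA 411 CPM in MyLa, 22.8 CPM in H9 and 170.0 CPM in Mac1. HLA-DMB and HLA-DOB were higher too. HLA-DPA1, the partner of HLA-DPB1, was higher than in H9 but not called against Mac1, at 1179 CPM in MyLa, 182 CPM in H9 and 1079 CPM in Mac1, with a log2 difference from Mac1 of 0.13 ± 0.082 and adjusted p = 0.186 in edgeR's test. In all, 7 of the 13 genes were higher and 5 lower. HLA-DRB1 and HLA-DRB5 are close copies between which reads may be split, and HLA-DRB5 is carried on some haplotypes only. Allelic differences from the reference were not tested.

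**Figure D2:**
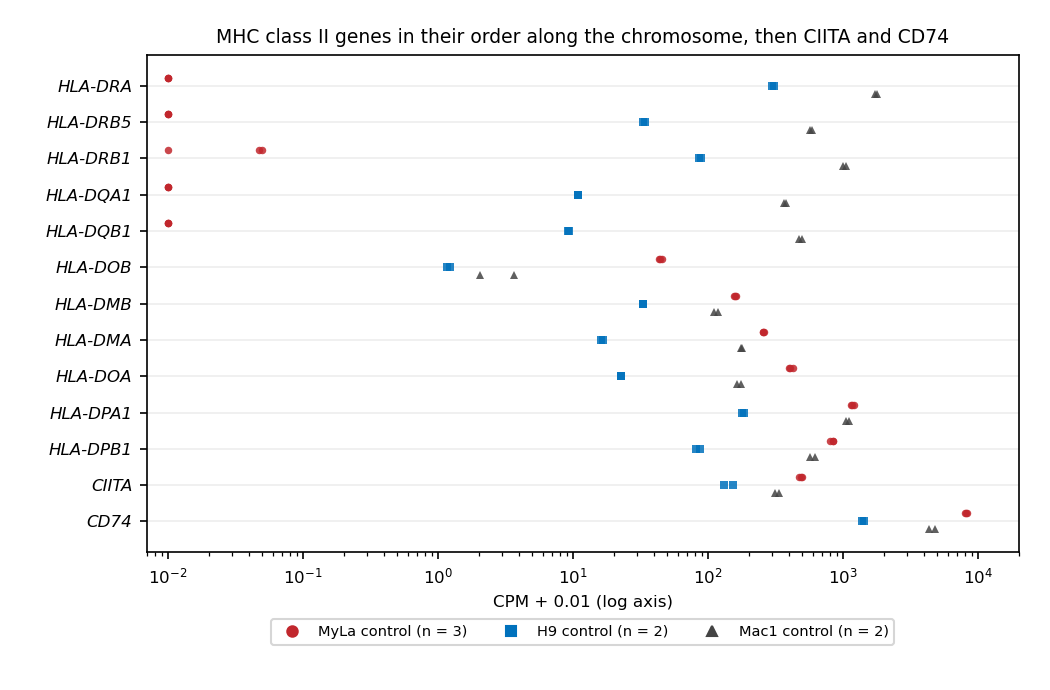
Levels (CPM + 0.01, log axis) of the MHC class II genes in chromosome order, then CIITA and CD74, with 1 point per control library (3 MyLa, 2 H9, 2 Mac1). The 5 genes from HLA-DRA to HLA-DQB1 are at or near no count in MyLa, while from HLA-DOB onward MyLa lies above H9 in every row.

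MHC class I presentation did not separate in 1 direction, with 4 of 19 tested genes higher and 4 lower. ERAP2, a peptide-trimming aminopeptidase, averaged 389 CPM in MyLa, 37.9 CPM in H9 and 173 CPM in Mac1, and its relative ERAP1 40.9 CPM in MyLa, 167 CPM in H9 and 109.6 CPM in Mac1. NLRC5, the class I transactivator, had 16.2, 15 and 15.2 CPM in the MyLa libraries, against 76 and 72.2 CPM in the H9 libraries and 123 and 118 CPM in the Mac1 libraries. HLA-B averaged 727 CPM in MyLa, 1036 CPM in H9 and 3382 CPM in Mac1.

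More than 50% of interferon response genes were lower. Of 46 tested, 25 were lower (54.3%) and 4 higher (8.70%), against 15.9% and 19.7% of all tested genes. Among protein-coding genes with at least 5 CPM in 1 of the 3 lines, 23.1% were lower and 20.75% higher. The median log2 difference of the 46 interferon genes was -1.28 from H9 and -0.92 from Mac1, against 0 and 0 over all tested genes. PARP14, an ADP-ribosyltransferase, had 0 CPM in all 3 MyLa libraries, 99.3 and 91.3 CPM in the H9 libraries and 115 and 109.9 CPM in the Mac1 libraries. OAS3, an oligoadenylate synthetase that senses double-stranded RNA, averaged 0.0247 CPM in MyLa, 121 CPM in H9 and 24.7 CPM in Mac1. HERC5, the ligase that attaches ISG15, averaged 0.0122 CPM in MyLa, 26.8 CPM in H9 and 28 CPM in Mac1, and EPSTI1 0.0646 CPM in MyLa, 31 CPM in H9 and 14.5 CPM in Mac1.

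Of the 25 lower genes, 7 were under 0.2 CPM in MyLa. Others differed less. GBP1, a guanylate-binding protein against intracellular pathogens, averaged 0.566 CPM in MyLa, 122 CPM in H9 and 18.8 CPM in Mac1. PARP9, the partner of DTX3L, averaged 0.432 CPM in MyLa, 53 CPM in H9 and 73.5 CPM in Mac1. IRF1, a transcription factor of the response, averaged 49.6 CPM in MyLa, 175 CPM in H9 and 83.2 CPM in Mac1.

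The list was not uniform. MX2, an inhibitor of HIV nuclear import, had 128, 118 and 122 CPM in the MyLa libraries, against 0.934 and 1.03 CPM in the H9 libraries and 0.341 and 0.669 CPM in the Mac1 libraries. IFIH1, the RNA sensor MDA5, averaged 89 CPM in MyLa, 56.6 CPM in H9 and 18.3 CPM in Mac1. TRIM22, an antiviral ubiquitin ligase, averaged 15.8 CPM in MyLa, 1.69 CPM in H9 and 1.26 CPM in Mac1, and IFIT3 averaged 12.8 CPM in MyLa, 1.87 CPM in H9 and 6.48 CPM in Mac1. BST2, tetherin, was at 319 CPM in MyLa, 75.8 CPM in H9 and 322 CPM in Mac1 and was called against H9 alone.

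**Figure D3:**
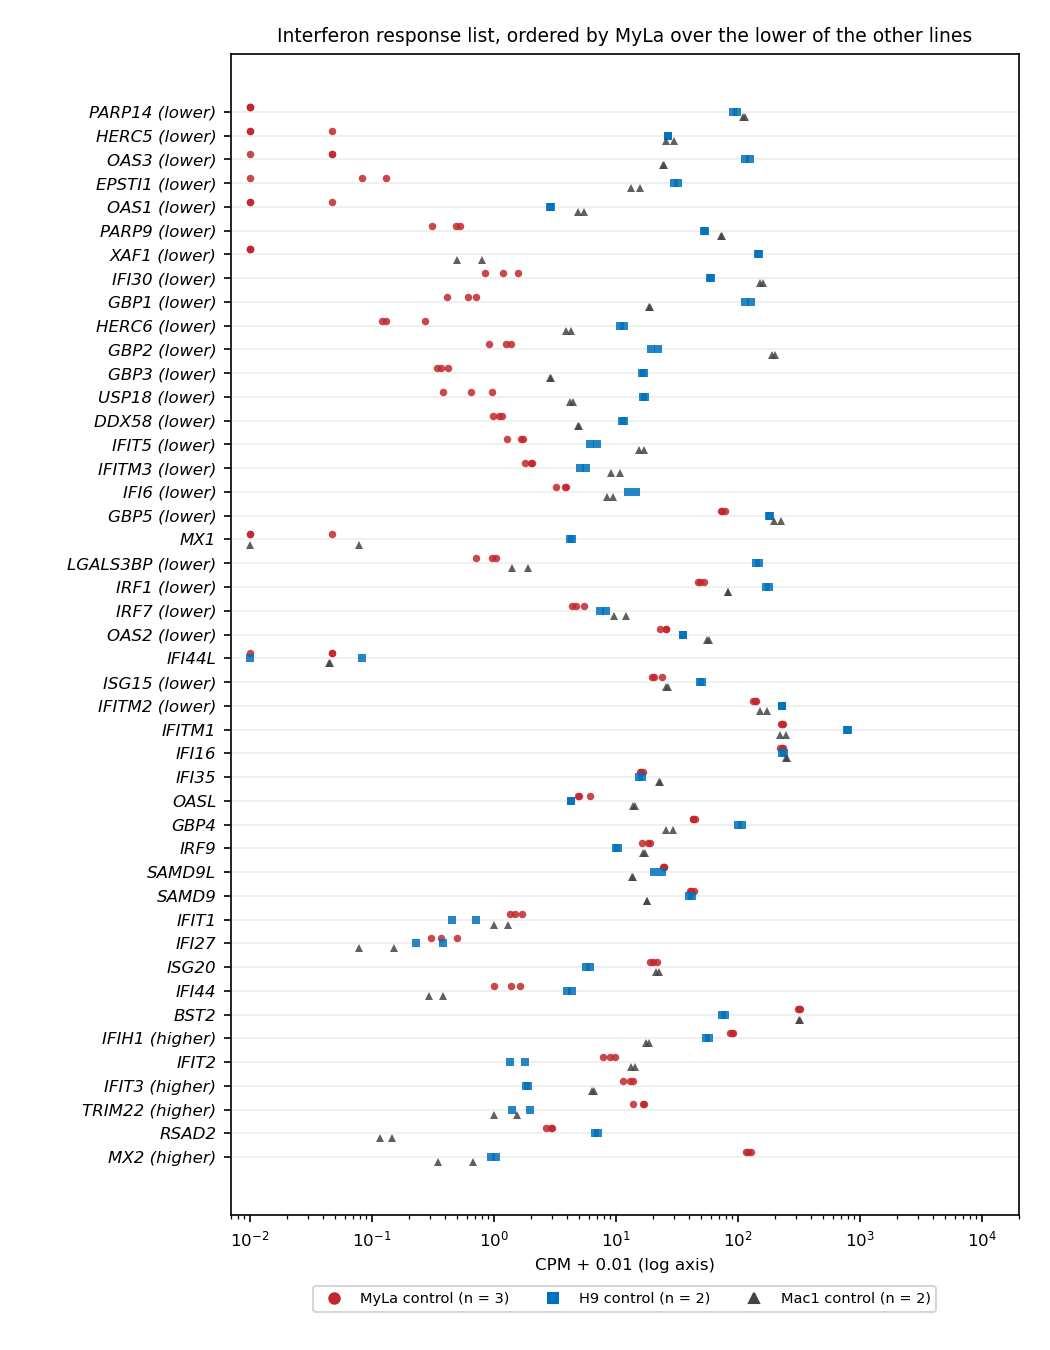
Levels (CPM + 0.01, log axis) of the tested interferon response genes reported here, ordered by MyLa over the lower of H9 and Mac1, with 1 point per control library (3 MyLa, 2 H9, 2 Mac1). Row labels mark the genes lower and the 4 higher in MyLa in both comparisons; from PARP14 down to EPSTI1 the MyLa points lie near no count.

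The first 4 of these interferon genes by size of difference are shown with their promoters, because these hold the letters that interferon-activated factors are known to bind. Windows run from 250 bases before to 50 after the RefSeq start (GRCh38.p14), 5′ to 3′ on the gene's strand. They lie at chr3:122680589-122680888, plus strand (PARP14), chr4:88456869-88457168, plus strand (HERC5), chr12:112938224-112938523, plus strand (OAS3) and chr13:42992192-42992491, minus strand (EPSTI1). Capitals mark each match to GAAANNGAAA on either strand, a match on the other strand reading TTTCNNTTTC; in HERC5 the first 2 of 3 matches overlap.
PARP14: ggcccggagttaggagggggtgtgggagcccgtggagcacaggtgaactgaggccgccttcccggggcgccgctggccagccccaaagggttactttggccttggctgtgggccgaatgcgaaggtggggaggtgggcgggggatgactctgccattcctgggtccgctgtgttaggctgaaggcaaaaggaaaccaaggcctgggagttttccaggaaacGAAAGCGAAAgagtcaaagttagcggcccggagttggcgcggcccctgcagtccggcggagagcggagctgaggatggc
HERC5: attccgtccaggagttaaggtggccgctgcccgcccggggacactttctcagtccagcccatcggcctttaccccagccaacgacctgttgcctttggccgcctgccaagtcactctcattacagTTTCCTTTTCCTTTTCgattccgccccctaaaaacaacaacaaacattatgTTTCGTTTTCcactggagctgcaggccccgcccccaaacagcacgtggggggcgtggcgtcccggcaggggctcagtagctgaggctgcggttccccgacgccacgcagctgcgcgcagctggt
OAS3: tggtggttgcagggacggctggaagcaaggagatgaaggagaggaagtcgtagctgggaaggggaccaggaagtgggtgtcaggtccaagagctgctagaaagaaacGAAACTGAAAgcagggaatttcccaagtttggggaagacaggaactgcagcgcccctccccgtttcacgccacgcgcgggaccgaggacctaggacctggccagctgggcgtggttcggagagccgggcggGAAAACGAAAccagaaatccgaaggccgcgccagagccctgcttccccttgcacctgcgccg
EPSTI1: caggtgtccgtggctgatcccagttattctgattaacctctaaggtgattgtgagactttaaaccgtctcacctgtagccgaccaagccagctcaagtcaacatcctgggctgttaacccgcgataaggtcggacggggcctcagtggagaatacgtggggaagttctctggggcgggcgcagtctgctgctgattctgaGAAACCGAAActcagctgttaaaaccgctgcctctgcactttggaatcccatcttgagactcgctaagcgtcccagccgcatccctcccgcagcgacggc

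The motif was no rarer among interferon genes that were not lower. It was found in 11 of 17 lower interferon genes with a RefSeq window (64.7%), in 12 of 17 other tested interferon genes (70.6%) and in 3.65% of all 27305 windows. A match describes letters in these windows and not a bound site. The number of CG dinucleotides per window was 19, 21, 20 and 18 in PARP14, HERC5, OAS3 and EPSTI1.

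NF-kB pathway genes were more often higher than lower, 15 of 30 tested (50%) against 19.7% of all genes, and 5 were lower. MAP3K14 (NIK), the kinase that starts the non-canonical branch, had 351, 319.7 and 350.1 CPM in the MyLa libraries, against 15.5 and 12.5 CPM in the H9 libraries and 39.98 and 40.4 CPM in the Mac1 libraries; MAP3K14-AS1 overlaps it. NFKB2, the p100 precursor which that branch processes, averaged 883 CPM in MyLa, 527 CPM in H9 and 339.5 CPM in Mac1. TRAF1, an adaptor, had 638, 599 and 619 CPM in the MyLa libraries, against 143 and 134 CPM in the H9 libraries and 98.9 and 110.4 CPM in the Mac1 libraries, and CD83, a surface marker of activation, averaged 164 CPM in MyLa, 24.5 CPM in H9 and 17.8 CPM in Mac1. BIRC3, a target of the pathway, averaged 419 CPM in MyLa, 269 CPM in H9 and 186 CPM in Mac1. NFKBIA, its inhibitor and target, averaged 317 CPM in MyLa, 63.6 CPM in H9 and 271 CPM in Mac1. Lower genes were BCL3 (57.5 CPM in MyLa, 207 CPM in H9 and 144 CPM in Mac1), REL, RELA, CYLD and TRAF3; CYLD and TRAF3 restrain the pathway, and RELA averaged 81.5 CPM in MyLa, 103 CPM in H9 and 93.5 CPM in Mac1.

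Genes of glycolysis and hypoxia were lower in 16 of 31 tested (51.6%) and higher in 2. The lower share was 15.9% among all genes and 23.1% among protein-coding genes with at least 5 CPM in 1 of the 3 lines. The summed level of the list did not follow its count of lower genes against H9: it was 16901 to 17613 CPM in MyLa, 15723 to 15973 CPM in H9 and 30983 to 33518 CPM in Mac1. GAPDH, a glycolytic dehydrogenase that adds much to the sum, averaged 4199 CPM in MyLa, 3351 CPM in H9 and 7522 CPM in Mac1. SLC16A3, a lactate exporter, had 0.551, 0.187 and 0.321 CPM in the MyLa libraries, against 17 and 16.7 CPM in the H9 libraries and 180.3 and 196 CPM in the Mac1 libraries. PFKFB3, which raises the activator of phosphofructokinase, had 34.8, 32.5 and 32.8 CPM in the MyLa libraries, against 159 and 145 CPM in the H9 libraries and 466 and 532 CPM in the Mac1 libraries. BNIP3, a mitophagy receptor induced by hypoxia, averaged 9.38 CPM in MyLa, 69.5 CPM in H9 and 56.2 CPM in Mac1. HIF1A averaged 82.8 CPM in MyLa, 153 CPM in H9 and 149.6 CPM in Mac1. PGK1, phosphoglycerate kinase, averaged 807 CPM in MyLa, 1194 CPM in H9 and 1170.3 CPM in Mac1. The 2 higher genes were the neuronal enolase ENO2 (263 CPM in MyLa, 47.3 CPM in H9 and 53.9 CPM in Mac1) and the prolyl hydroxylase EGLN3 (20.6 CPM in MyLa, 2.35 CPM in H9 and 7.93 CPM in Mac1).

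All 13 mitochondrially encoded mRNAs were higher in MyLa. MT-ND1 averaged 1695 CPM in MyLa, 304 CPM in H9 and 588 CPM in Mac1, and MT-CO1 5873 CPM in MyLa, 1453 CPM in H9 and 3181 CPM in Mac1. Summed over the 13, the level was 29696 to 32442 CPM in MyLa, 5969 to 6117 CPM in H9 and 10463 to 12639 CPM in Mac1.

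Cytoskeletal and matrix genes divided. Of 38 tested actin and contractile genes 8 were higher and 13 lower. YAP1, the co-activator that answers to cell shape through the Hippo pathway, had 115, 114 and 103 CPM in the MyLa libraries, against 0.0374 and 0.0367 CPM in the H9 libraries and 0.307 and 0.423 CPM in the Mac1 libraries. RAI14, an actin-bundle protein, averaged 55.8 CPM in MyLa and was uncounted in H9 and Mac1. VIM, vimentin, averaged 7247 CPM in MyLa, 895 CPM in H9 and 2378 CPM in Mac1. Of 31 integrin and adhesion genes 9 were higher and 7 lower; ITGB1, the beta 1 chain, averaged 44 CPM in MyLa, 159.7 CPM in H9 and 271 CPM in Mac1. Its partner ITGA4 averaged 5.26 CPM in MyLa, 118 CPM in H9 and 87.6 CPM in Mac1, and ITGA5, the alpha chain of the fibronectin receptor, 0 CPM in MyLa, 40.1 CPM in H9 and 9.88 CPM in Mac1.

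Markers of other cell types were read beside these genes. Of 20 mesenchymal markers 12 were tested, 4 higher (COL3A1, COL1A1, FN1, FBN1) and 1 lower, and their summed level was 549.9 to 605 CPM in MyLa, 86.5 to 101 CPM in H9 and 155 to 159.9 CPM in Mac1. COL1A1 averaged 106 CPM in MyLa, 4.15 CPM in H9 and 0.402 CPM in Mac1. FN1, fibronectin, averaged 107 CPM in MyLa, 0.813 CPM in H9 and 7.28 CPM in Mac1. The defining fibroblast genes DCN, LUM and PRRX1 were uncounted in MyLa, and COL1A2, whose chain pairs with COL1A1 in type I collagen, was at 0.243 CPM. Of 17 tested neural and secretory genes 7 were higher and 0 lower, with a sum of 380.3 to 403 CPM in MyLa, 72.7 to 73.1 CPM in H9 and 402 to 427 CPM in Mac1; SNAP25, NEFL, NEFM and UCHL1 were uncounted in MyLa.

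Of 11 tested myeloid genes 3 were higher, CD33 (28.5 CPM in MyLa, 0.129 CPM in H9 and 0.0176 CPM in Mac1), ITGAM (35.2 CPM in MyLa, 0.261 CPM in H9 and 1.49 CPM in Mac1) and CD68, and 1 was lower; LYZ, MPO and SPI1 were uncounted in MyLa, and the sum was 83.5 to 91.2 CPM in MyLa, 161 to 163 CPM in H9 and 106 to 119.8 CPM in Mac1. Of 12 tested B cell genes 2 were higher, among them EBF1 (54.7 CPM in MyLa, 0 CPM in H9 and 13.8 CPM in Mac1), and 1 was lower; MS4A1 was uncounted, and the sum was 212 to 216 CPM in MyLa, 405 to 429 CPM in H9 and 269.9 to 286 CPM in Mac1. Of 16 tested epithelial genes 2 were higher, CDH1 (101 CPM in MyLa, 5.12 CPM in H9 and 0.0352 CPM in Mac1) and TP63, and 2 lower; EPCAM, KRT14 and KRT18 were uncounted in MyLa, and the sum was 399.6 to 415 CPM in MyLa, 694 to 722 CPM in H9 and 159.0 to 164 CPM in Mac1. Endothelial genes (6 tested, 2 higher, 0 lower) summed to 6.96 to 7.58 CPM in MyLa, 4.97 to 5.36 CPM in H9 and 20.9 to 24.9 CPM in Mac1, and erythroid and megakaryocyte genes (7 tested, 1 higher, 0 lower) to 16 to 17.8 CPM in MyLa, 9.64 to 9.70 CPM in H9 and 7.61 to 8.73 CPM in Mac1. The part of such transcripts in the results was not tested.

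Mitosis genes were called in the higher direction alone, 7 of 23 tested, among them NUSAP1 (184 CPM in MyLa, 72.2 CPM in H9 and 135 CPM in Mac1) and AURKB (248 CPM in MyLa, 183 CPM in H9 and 148 CPM in Mac1). The list as a whole was not raised over Mac1. Its median log2 difference was 0.44 from H9 and -0.02 from Mac1. Its summed level was 4302 to 4518 CPM in MyLa, 3502 to 3582 CPM in H9 and 4577 to 4639 CPM in Mac1. Of 26 DNA replication genes 5 were higher and 5 lower. Of 23 DNA methylation and Polycomb genes 8 were higher and 4 lower: EZH2, the H3K27 methyltransferase, averaged 233 CPM in MyLa, 86.5 CPM in H9 and 108 CPM in Mac1, and its partner EED 100.3 CPM in MyLa, 26.1 CPM in H9 and 41.4 CPM in Mac1. DNMT3A, a de novo DNA methyltransferase, averaged 10.2 CPM in MyLa, 88 CPM in H9 and 20.1 CPM in Mac1. HOX genes differed by paralogue, 6 of 32 tested being higher and 7 lower. Among the higher ones HOXA11 averaged 28.5 CPM in MyLa, 1.70 CPM in H9 and 6.38 CPM in Mac1, and HOXC9 47.3 CPM in MyLa, 3.85 CPM in H9 and 18.2 CPM in Mac1. Among the lower ones HOXA9 averaged 0.354 CPM in MyLa, 23.4 CPM in H9 and 22.6 CPM in Mac1, and HOXA7 0.0378 CPM in MyLa, 10.2 CPM in H9 and 17.2 CPM in Mac1.

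**Figure D4:**
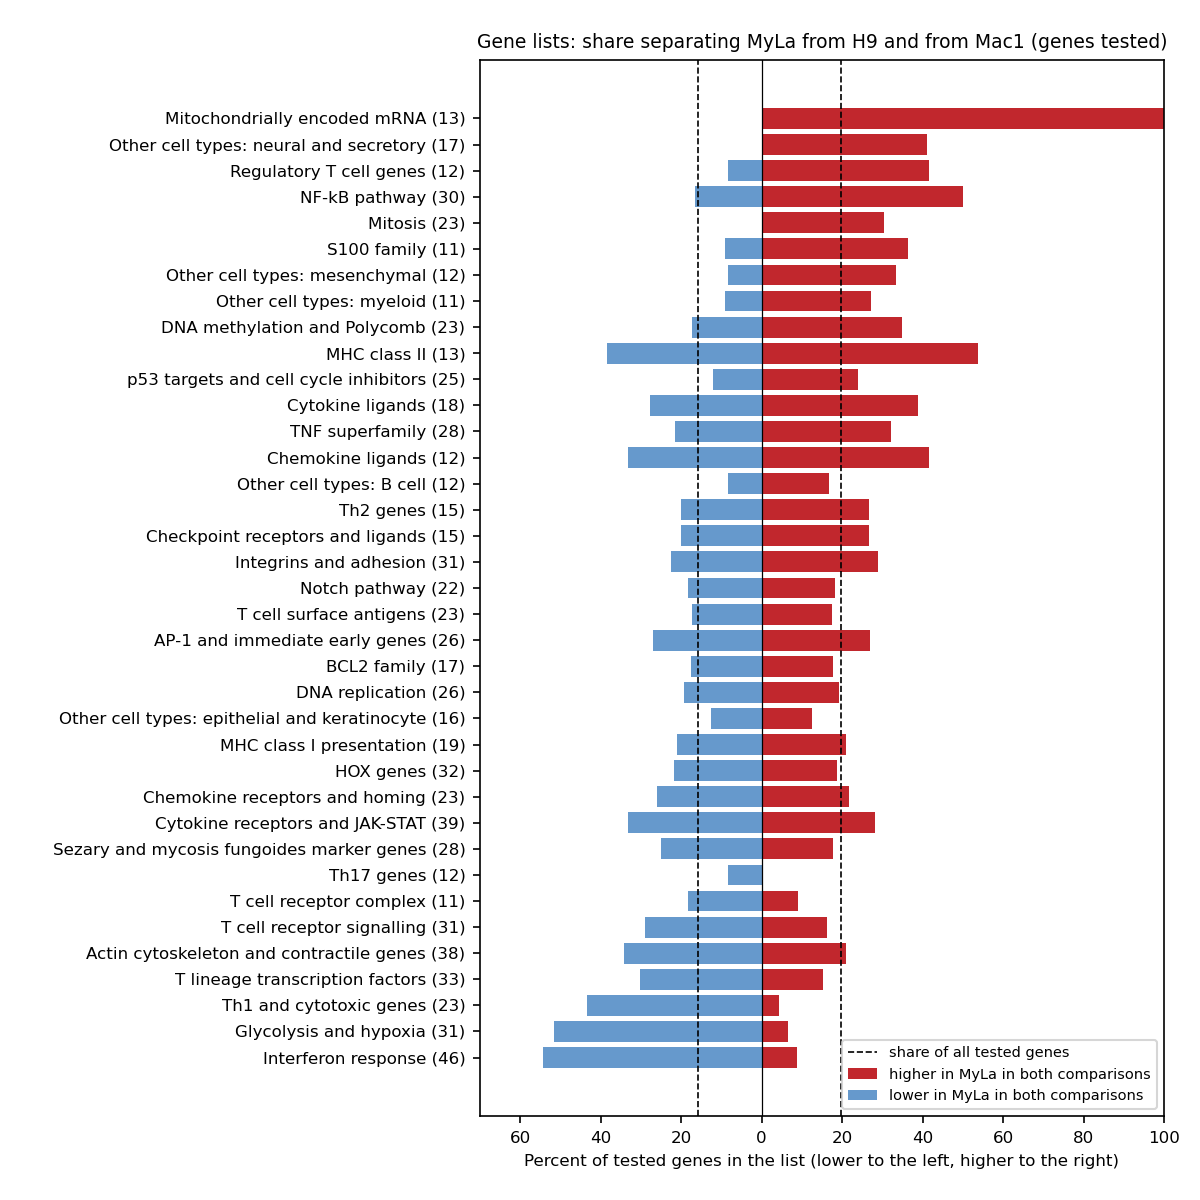
Share of the tested genes of each list with at least 10 tested genes that were higher (right) or lower (left) in MyLa in both comparisons, with the number tested in brackets. Dashed lines are the shares among all 20324 tested genes, 19.7% higher and 15.9% lower; interferon response, glycolysis and hypoxia and the cytotoxic list extend furthest to the left.

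Genes associated with Sézary syndrome and mycosis fungoides did not single out MyLa, with 5 of 28 tested higher and 7 lower. DNM3, a dynamin that is high in Sézary cells, averaged 19.6 CPM in MyLa, 0.444 CPM in H9 and 0.674 CPM in Mac1. NEDD4L, a ubiquitin ligase, had 0 CPM in all 3 MyLa libraries, 94.6 and 95.1 CPM in the H9 libraries and 12.6 and 13.9 CPM in the Mac1 libraries. AP-1 and immediate early genes had 7 of 26 higher and 7 lower, the Notch pathway 4 of 22 and 4, the BCL2 family 3 of 17 and 3, p53 targets and cell cycle inhibitors 6 of 25 and 3, surface antigens 4 of 23 and 4, chemokine ligands 5 of 12 and 4, and the S100 family 4 of 11 and 1.

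By position, chromosome 17 carried the largest share of higher genes among the chromosomes, 464 of 1256 tested (36.9%), with 111 lower (8.84%). In its bins of 10 Mb the share ranged from 23.4 to 43.6%. The median log2 difference on chromosome 17 was 0.28 from H9 and 0.59 from Mac1, against 0 for all genes. MAP3K14, CCR10 and COL1A1 are among these genes. DNA copy number was not analysed here.

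By type, lincRNA and antisense genes were more often higher, 27.5% of 2395 against 5.97% lower, while protein-coding genes were 19.5% higher and 19.4% lower. The lincRNA and antisense genes were mostly low, with a median of 0.609 CPM in MyLa, 0.407 CPM in H9 and 0.295 CPM in Mac1. The excess was not confined to low genes. Of the 440 with at least 5 CPM in 1 of the 3 lines, 39.8% were higher and 12.05% lower. For protein-coding genes at that level the shares were 20.75% and 23.1%.

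Genes near 0 in MyLa included runs of neighbours. Of 11513 protein-coding genes considered, 273 were under 0.2 CPM in MyLa with at least 1 CPM in both other lines, and 198 had the reverse pattern (under 0.2 CPM in both others, at least 1 CPM in MyLa). Runs of at least 3 such genes in a row, skipping genes not considered, numbered 6 for those silent in MyLa and 1 for the reverse. One of the 6 was the class II run and 5 lay on chromosome 19 among zinc finger genes. The run with the most genes on chromosome 19, 5 as in the class II run, lay from 44094339 to 44305046 (GRCh38) and held ZNF224, ZNF225, ZNF226, ZNF227 and ZNF235. ZNF224 had 0 CPM in all 3 MyLa libraries, 16.2 and 14.8 CPM in the H9 libraries and 7.07 and 6.16 CPM in the Mac1 libraries, and ZNF226 averaged 0 CPM in MyLa, 9.89 CPM in H9 and 2.05 CPM in Mac1. The reverse run held ACKR1, FCER1A and DUSP23 on chromosome 1. Pairs of neighbours silent in MyLa included OAS1 with OAS3 and HERC6 with HERC5.

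The zinc finger genes of chromosome 19 were then counted as a set, chosen after these values were seen. Of 224 tested, 17 were higher (7.59%) and 53 lower (23.7%). Under 0.2 CPM were 131 of them in MyLa, 29 in H9 and 105 in Mac1, with a median level of 0.012 CPM in MyLa, 6.70 CPM in H9 and 0.53 CPM in Mac1. Low levels were thus shared with Mac1 for many genes, and 26 were silent in MyLa while at 1 CPM or more in both other lines, against 2 silent in H9 alone and 6 in Mac1 alone. Over all protein-coding genes the same counts were 273 for MyLa, 152 for H9 and 262 for Mac1.

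The differences were measured again in the GATA3 knockdown libraries of the same lines, which the rule did not use (3 MyLa, 3 H9, 2 Mac1). There MyLa was higher than H9 in 33.1% and lower in 33.4% of 20332 tested genes, and higher than Mac1 in 29.7% and lower in 28.7%. Both were called the same way in 17.9% (higher) and 14.8% (lower). Of the genes higher in MyLa controls, 3953 were tested there and 2970 were called higher in both comparisons (75.1%), against 3.40% of other tested genes. Of the lower genes 3221 were tested and 2556 were called lower (79.4%), against 2.62%. None of the higher or lower genes was called in the opposite direction in both comparisons; 983 and 665 were not called in both.

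The sizes were close as well. For the higher genes the median log2 difference was 1.47 from H9 and 1.35 from Mac1 in knockdown libraries, against 1.52 and 1.41 in controls. For the lower genes it was -1.09 and -1.11 in knockdown libraries, against -1.19 and -1.08 in controls. All 30 genes ranked first were called the same way. Among the lists, the calls were made again for 5 of 5 lower and 6 of 7 higher class II genes, 21 of 25 lower interferon genes, 9 of 10 lower type 1 and cytotoxic genes, 11 of 16 lower glycolysis and hypoxia genes and all 13 mitochondrial mRNAs. In the NF-kB pathway this was so for 11 of 15 higher but 1 of 5 lower genes, and in mitosis for 2 of 7. These libraries are of the same lines, so they extend the comparison to no other line.

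**Figure D5:**
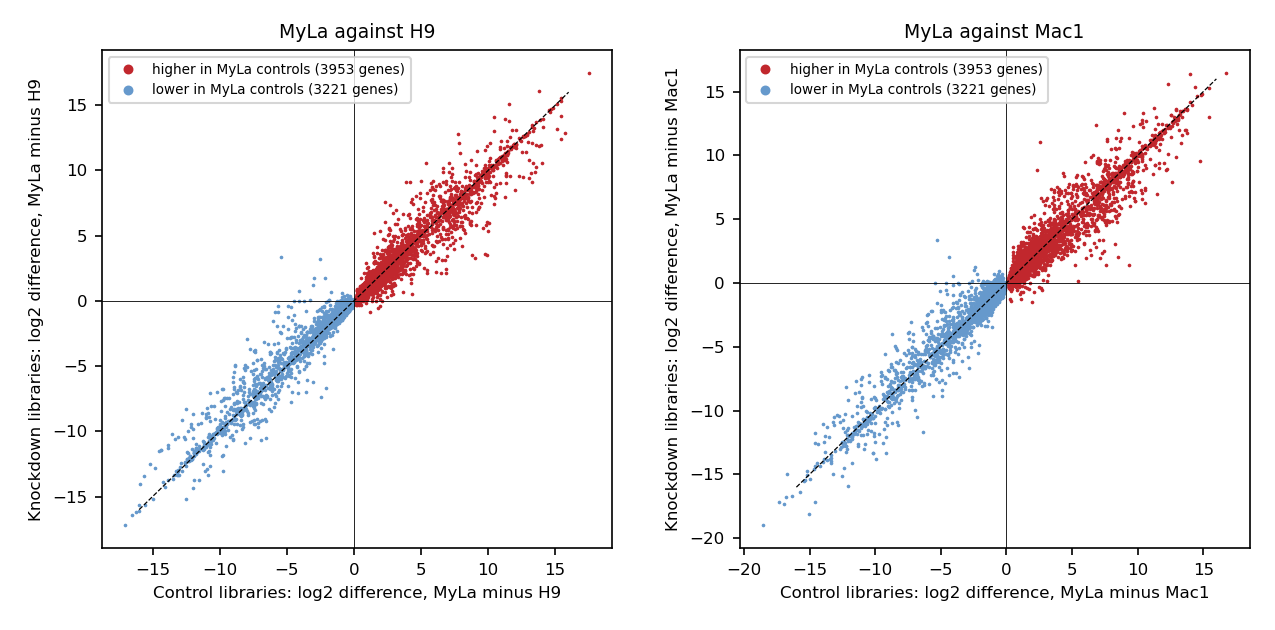
Log2 difference of each separating gene in knockdown libraries (vertical) against control libraries (horizontal), MyLa minus H9 on the left and MyLa minus Mac1 on the right, for 3953 higher and 3221 lower genes tested in both. The dashed line marks equal differences; most points lie along it.

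Near the threshold the differences were small or rested on few counts. Just inside it was ZNHIT1, at 52.5 CPM in MyLa, 112 CPM in H9 and 58.8 CPM in Mac1 with adjusted p = 0.04997 against Mac1 in edgeR's test. Just outside was ARFGEF2, at 60.3 CPM in MyLa, 129 CPM in H9 and 67.1 CPM in Mac1 with adjusted p = 0.0501. DENND4A, also just outside, averaged 173 CPM in MyLa, 149 CPM in H9 and 99.6 CPM in Mac1, and MYLK3, just inside, 0.112 CPM in MyLa, 0.278 CPM in H9 and 0.346 CPM in Mac1. No source used here says whether reads were counted by strand, so reads of a gene and of an overlapping opposite-strand gene cannot be told apart. Beside the pairs given above this touches EIF2AK2 (GPATCH11), IL13 (TH2LCRR), FUT7 (C9orf139), CD80 (TIMMDC1), STAT6 (LRP1, NAB2), PARP9 (DTX3L), IFIT3 (LIPA), TRIM22 (TRIM5), ERAP1 (CAST), CIITA (DEXI), HLA-DPB1 (HLA-DPA1), HLA-DMA (BRD2), SLC16A3 (CSNK1D), CCR10 (CNTNAP1), ZBTB7B (DCST2) and ZNHIT1 (PLOD3). Other named genes, among them FLI1, YAP1, APP and OAS3, overlap a non-coding gene.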

How the data were processed

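The series holds 36 libraries of polyadenylated RNA from 7 human lines of T cell neoplasms; results here use the 18 control libraries, and the 18 knockdown libraries for a repeat. The deposited values are expected counts per gene, which the authors made with cutadapt 2.3, STAR 2.7.8a and RSEM 1.3.3 on GRCh38, per the submitters' processing notes. Annotation release and strand setting: not given in the sources used here. All values were whole as deposited. Libraries of MyLa, H9 and Mac1 held about 25896600 to 34033700 counts (controls) and 22974600 to 50626600 (knockdown); CPM are on TMM-scaled totals. Groups were taken from the titles.

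edgeR 4.0.16 (R 4.3.3) was fitted to the 18 control libraries with 1 mean per line, TMM scaling, filterByExpr (20324 of 60628 genes) and quasi-likelihood F tests, with 11 residual degrees of freedom. Benjamini-Hochberg adjustment ran over all genes tested (two-sided, threshold 0.05). Genes called the same way against H9 and Mac1 were kept. The knockdown libraries were fitted alike (20332 genes), and a fit of all 36 libraries tested whether differences between lines changed with knockdown. Same-numbered libraries of different lines were checked as pairs: 6 correlations of their deviations ran from -0.063 to 0.032, none over 0.1, so libraries were not treated as paired. With 2 libraries the deviations of a line mirror each other, and both H9 and Mac1 pairs gave the same 0.032. The 6 values are therefore not independent, and the check cannot show that libraries were handled separately.

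The genes, lists and tests were chosen with earlier results of these data known. Named genes were protein coding or lncRNA, with every MyLa library outside the others, ranked by the smaller of both log2 ratios, at least 10 CPM, 15 per direction. Each list named up to 4 genes by that rank at 5 CPM or more plus some of its defining genes. Further list genes (for example TNFSF4, RUNX3, EZH2, HOXA9 and NEDD4L) and MAOB, GLUL and the zinc finger genes were chosen after their values were seen. Genes on chromosome Y were not named, and a few other genes are not reported here. Positions and overlaps came from GENCODE 29, which held 58516 identifiers (96.5%). Promoter windows of 300 bases came from RefSeq (GRCh38.p14).

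As alternatives the comparison was run with limma-voom (limma 3.58.1), with DESeq2 1.42.0, with its size factors alone, with other filters, with other sets of libraries, with replicate number as a block, with a minimum log2 difference of 1 and without single libraries. On simulated counts for MyLa against H9 and Mac1 (18524 genes), 92.5% of 1.5-fold and 100% of 2-fold and 4-fold differences were recovered, with 1 false call. There all lines shared 1 mean per gene, apart from 67, 67 and 66 changed genes at 5 CPM or more. Every gene had the same dispersion (0.00525). In the data most genes differed between lines and many were near 0, so these rates do not carry over to the reported genes. SE was the absolute log2 difference over the square root of the quasi-likelihood F statistic. SD came from the libraries of a line, and both include library-to-library spread. The floors cover counting error only. Figures used Python 3.11.15 with matplotlib 3.10.9.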

Additional observations from a re-analysis of the deposited data

Results flagged for a closer look

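The difference between lines changed with GATA3 knockdown for 2 named genes, tested as a difference of differences in edgeR over all 36 libraries (adjusted p at most 0.05 against both H9 and Mac1). RASGRP1, lower in MyLa controls, was less far below the other lines in knockdown libraries: its log2 difference moved by 0.88 relative to H9 and by 0.82 relative to Mac1. STMN3, a stathmin-family gene on the neural list, higher in MyLa controls, moved by -0.57 relative to H9 and by -0.83 relative to Mac1. Such a change against both lines was called for 2 of 158 named genes and for 66 of 21138 tested genes. Other named genes were called against 1 line alone, among them GATA3 and MAOA. GATA3 moved by 0.54 relative to H9 and by 0.43 relative to Mac1, the latter just missing the threshold (adjusted p = 0.0504 in edgeR's test). MAOA moved by -4.64 relative to Mac1 and by -2.79, not called, relative to H9. The Mac1 value rests on 0.0347 CPM in Mac1 controls and 0.552 CPM in Mac1 knockdown libraries. In MyLa, MAOA averaged 242 CPM in controls and 135 CPM in knockdown libraries. PHGDH and HLA-DRA had no count in the MyLa control or knockdown libraries, so a change in their difference could not be measured. STMN3 was called against H9 by a small margin, at 33.2 CPM in MyLa and 28.5 CPM in H9.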

How the results depend on the processing

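Requiring an absolute log2 difference of at least 1 left 2039 higher and 1395 lower genes, 8385 calls against H9, 7331 against Mac1 and 3136 genes repeated in knockdown libraries, where the threshold alone gave 4007, 3237, 14381, 13508 and 5526. Under the other settings every count stayed within 1.5 times: DESeq2 gave 3662 higher and 3145 lower, of which 3628 and 3112 were shared with the reported genes, and limma-voom 4065 and 3259. Leaving out each control library of the 3 lines in turn gave 3727 to 3838 higher and 2996 to 3110 lower genes, 13243 to 14597 calls against H9 and 12263 to 13689 against Mac1. Without CCRF-CEM control 2, a choice made after seeing the data, the counts were 4152, 3361, 14677 and 13892.

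With replicate number as a block 3874 genes were higher and 3139 lower, with 14123 calls against H9 and 13218 against Mac1. Whether equal numbers mark libraries handled together is not known. Among values of 157 named genes under these settings 5013 kept direction and call, none reversed and 11 lost their call, in KRT10, TP63, STMN3 and DLL3. STMN3 stood at 0.13 above H9 (log2) without H9 control 1. GATA3 kept its calls, from 0.71 to 0.79 above H9 and from 1.33 to 1.61 above Mac1. Limma-voom moved the median of all genes by 0.12 against Mac1. Each line gave 2 or 3 control libraries, so small differences called here show that these libraries differ, and levels under 0.2 CPM rest on a few reads.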
